A study of Mus musculus with 9 samples.

Results

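The 35 genes described here are those of the p53 pathway and its targets, chosen by symbol from a list of pathway members. Of the 35, 30 had a probe set of their own, out of 22180 genes with a value, and 27 of those passed a filter on dim genes that left 15526 genes to test. Gadd45a and Ddb2 lie on probe sets with several gene symbols, and Trp53, Gdf15 and Fdxr were not analysed here. The values are log2 intensities from 9 Affymetrix Mouse Gene 2.0 ST arrays, each hybridised with total RNA of cultured cells. The parental group is the MYCCaP line, a mouse prostate cancer line from a tumour driven by a prostate-specific MYC transgene, grown with dihydrotestosterone (DHT), an androgen. Its 3 arrays are labelled technical and were averaged to 1 sample. The Vehicle and AZD1208 groups (n = 3 lines each) are cell lines from castrated mice bearing recurrent MYCCaP tumours and given vehicle or AZD1208, an inhibitor of the PIM kinases, and they are labelled as without DHT. All are thus derived from MYCCaP and share its MYC transgene. The sources used here do not give drug dose, mouse strain or age, or say whether AZD1208 was in the culture medium. The lines are labelled as biological replicates, but with no statement that each came from a separate mouse, so that a p-value here speaks for the spread among these lines alone.

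The p53 protein is a transcription factor that is held at a low level by the ubiquitin ligase MDM2 and its partner MDM4, and that accumulates after DNA damage and other stress. It then binds paired half-sites in the DNA near its target genes and raises genes for cell cycle arrest, DNA repair, cell death and metabolism. Some targets, MDM2 among them, feed back to switch it off. Oncogenic MYC is a known trigger of the pathway through the ARF protein made from Cdkn2a. Many of these genes also respond to other factors, so that their RNA is no direct measure of p53 activity.

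The sequence that p53 reads can be seen in the promoters of a few of these genes. The windows cover the 250 bases before an annotated transcription start (RefSeq, GRCm38.p6), and 24 of the 30 genes with a probe set had at least 1 window. They were searched for the p53 half-site consensus of 10 bases, a pattern that is its own reverse complement, so that a search of one strand covers both. A half-site was found in 10 of the 30 windows of these genes, against 7.13% of 32851 windows of all genes. A pair of half-sites at most 13 bases apart was found in 1 window, against 0.0639% of all windows. That window lies before an upstream start of Cdkn1a, with half-sites beginning 73 and 51 bases before the start. The 10 bases right after the second of them, tgacatgttc, miss the pattern at their first base only and are not marked. The Cdkn1a window is shown with those of Ei24, Aen and Mdm2, which hold 1 half-site each, and of Btg2, which holds none. They are examples only. The window of Dram1 and the other windows of Cdkn1a and Aen hold no half-site and are not shown. Capitals mark the half-sites, and each sequence runs 5′ to 3′ on the strand of the gene.
Cdkn1a, chr17:29090729-29090978, plus strand: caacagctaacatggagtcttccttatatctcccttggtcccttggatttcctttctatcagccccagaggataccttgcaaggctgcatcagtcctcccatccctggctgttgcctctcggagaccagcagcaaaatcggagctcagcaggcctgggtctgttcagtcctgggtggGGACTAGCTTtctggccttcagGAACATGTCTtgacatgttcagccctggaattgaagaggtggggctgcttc
Ei24, chr9:36797335-36797584, minus strand: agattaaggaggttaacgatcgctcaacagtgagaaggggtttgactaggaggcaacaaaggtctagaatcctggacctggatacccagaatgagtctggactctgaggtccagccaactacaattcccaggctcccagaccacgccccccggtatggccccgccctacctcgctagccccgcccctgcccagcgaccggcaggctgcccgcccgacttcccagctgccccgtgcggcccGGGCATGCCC
Aen, chr7:78895808-78896057, plus strand: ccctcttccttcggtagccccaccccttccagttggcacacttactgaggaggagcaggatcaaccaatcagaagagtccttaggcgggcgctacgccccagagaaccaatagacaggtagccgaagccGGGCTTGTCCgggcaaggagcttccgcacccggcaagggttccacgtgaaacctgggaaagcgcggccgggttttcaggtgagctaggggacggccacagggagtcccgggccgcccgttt
Mdm2, chr10:117710759-117711008, minus strand: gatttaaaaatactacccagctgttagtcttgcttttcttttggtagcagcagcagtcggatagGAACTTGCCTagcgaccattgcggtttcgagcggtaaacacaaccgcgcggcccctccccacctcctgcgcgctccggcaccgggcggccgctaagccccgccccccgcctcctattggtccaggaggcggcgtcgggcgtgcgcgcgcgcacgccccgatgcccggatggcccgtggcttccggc
Btg2, chr1:134079156-134079405, minus strand: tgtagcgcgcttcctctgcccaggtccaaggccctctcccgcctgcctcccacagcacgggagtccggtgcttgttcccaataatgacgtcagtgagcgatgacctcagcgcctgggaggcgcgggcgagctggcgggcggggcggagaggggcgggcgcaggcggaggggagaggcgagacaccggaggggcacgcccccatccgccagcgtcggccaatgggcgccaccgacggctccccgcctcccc
A match describes these letters only. No binding was measured in this study, and a window without a match does not show that p53 does not act on the gene from elsewhere.

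Cytokeratin Krt8 (8.24 to 10.44 over the recurrent lines) and the prostate transcription factors Foxa1 (11.71 to 12.13) and Hoxb13 (8.44 to 8.92) had values well above the filter limit of 5.81 in every line. The keratin Krt18 (6.47 to 6.91) and the adhesion gene Cdh1 (6.45 to 6.96) lay closer to that limit. The epithelial adhesion gene Epcam lay below it (4.51 to 5.06 over the recurrent lines, 4.99 in the parental one). The array medians lay between 6.22 and 6.36. AZD1208 3 had the narrowest interquartile range, 2.87 against 2.98 to 3.12 in the other 8 arrays, and the lowest array quality weight of the 6 recurrent lines (0.342, against 0.579 to 2.87). The main results are given with and without that line. The array reads bulk RNA, in which fewer cells of a type and less RNA per cell cannot be told apart.

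The first comparison asked whether p53 pathway genes differ between lines from mice given the PIM inhibitor and lines from vehicle mice. Perp and Ei24, both linked to p53-dependent cell death, were lower in all 3 AZD1208 lines than in any Vehicle line, and Dram1, a lysosomal membrane protein that promotes autophagy, was higher in all 3. The cell cycle inhibitor Cdkn1a (p21) had the largest negative difference, with overlapping groups. No gene of the pathway passed the adjusted threshold (limma, 0 of 27, where 0.0% of all genes tested passed), and 0 of 27 had an unadjusted p under 0.05, where 0.522% of all genes did. With the replicate number as a block, Cdkn1a and Perp, 2 of 27, had an unadjusted p under 0.05, where 1.09% of all genes did. Without overlap between the groups, 2 genes were lower in AZD1208 lines (1.98% of all genes) and 1 was higher (1.41% of all genes).

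**Figure D1:**
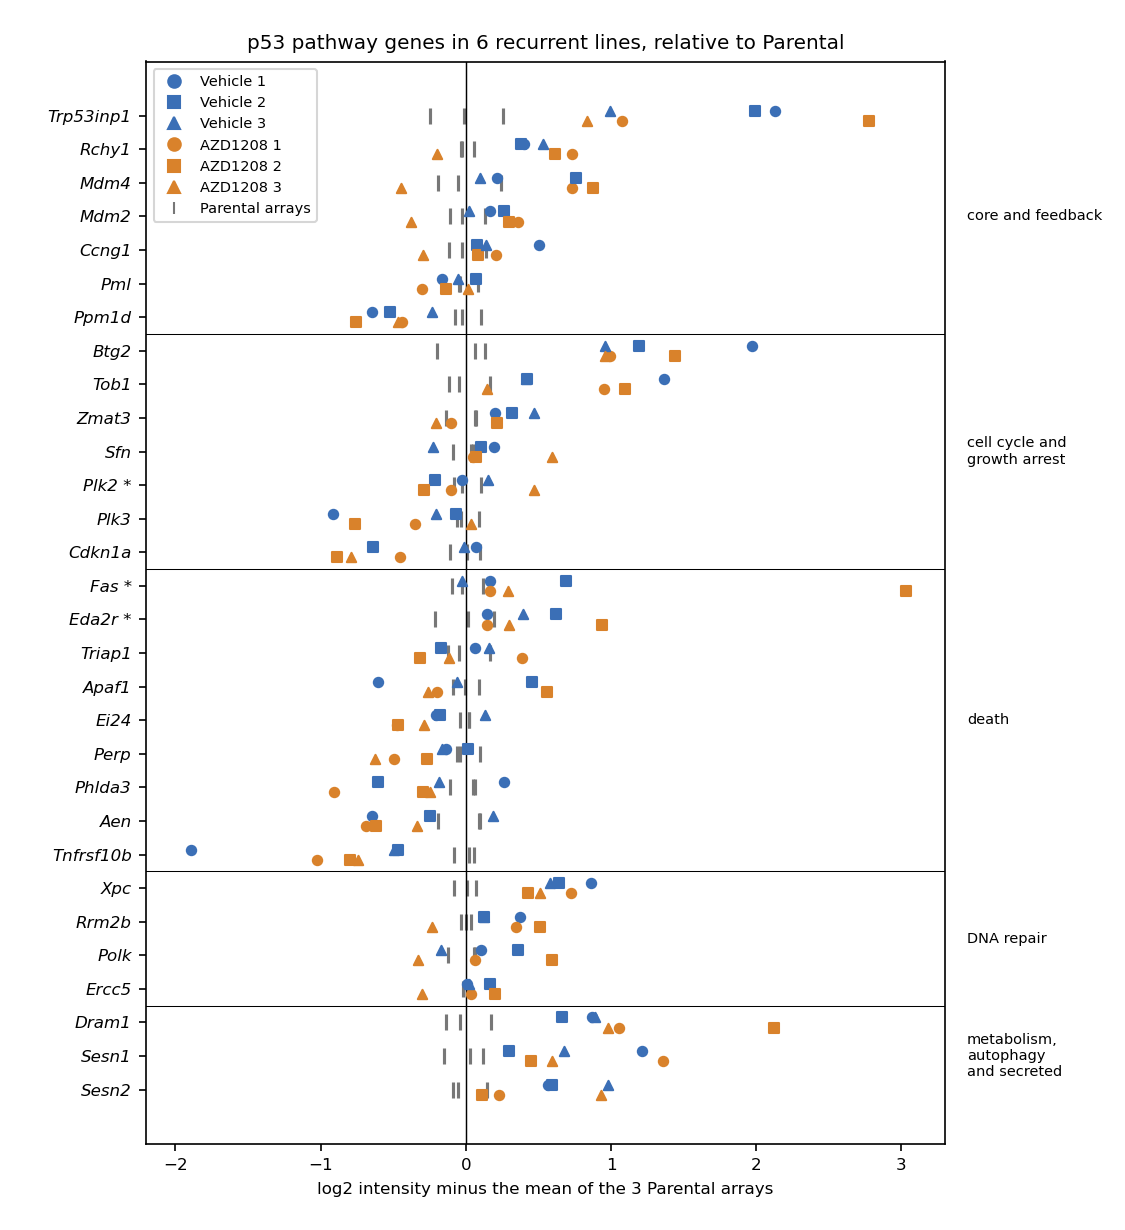
Log2 intensity of 30 p53 pathway genes in each recurrent line minus the mean of the 3 Parental arrays, ordered by role; blue, Vehicle lines; orange, AZD1208 lines; grey ticks, the Parental arrays; an asterisk marks the 3 genes left out by the filter on dim genes. Trp53inp1, Btg2, Dram1, Sesn1, Sesn2, Tob1, Xpc and the dim gene Eda2r lie to the right of 0 in all 6 lines. Ppm1d and Tnfrsf10b lie to the left, and Fas stands out in AZD1208 2.

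Cdkn1a, which binds and blocks cyclin-dependent kinases, read 9.80, 9.09 and 9.71 in Vehicle lines 1 to 3 and 9.27, 8.84 and 8.94 in AZD1208 lines 1 to 3. Vehicle 2 lay among the AZD1208 lines, and the other Vehicle lines lay close to the parental mean of 9.73. The log2 difference was -0.52 (SE 0.23, unadjusted p = 0.0587, adjusted p = 1, limma), or 1.43-fold lower. It was -0.74 without Vehicle 2 and -0.27 with array quality weights. Set against the parental line, Vehicle lines differed by -0.19 and AZD1208 lines by -0.71, 2 values that share the same parental sample. Between same-numbered lines the difference of AZD1208 minus Vehicle was -0.53, -0.25 and -0.77 for Cdkn1a. No label states that the numbers pair lines, and Vehicle 2 (9.09) read below AZD1208 1 (9.27).

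Perp, a membrane protein of desmosomes and an effector of p53-dependent death, read 10.55, 10.70 and 10.52 in Vehicle lines and 10.19, 10.42 and 10.06 in AZD1208 lines, against 10.68 in the parental line. The groups did not overlap, and the difference was -0.37 (SE 0.16, unadjusted p = 0.0520, adjusted p = 1, limma). Ei24, a protein of the endoplasmic reticulum first found as a p53-induced gene, read 11.36, 11.39 and 11.70 in Vehicle lines and 11.10, 11.10 and 11.28 in AZD1208 lines. Its difference was -0.33 (SE 0.16), and the highest AZD1208 line lay just below the lowest Vehicle line. With single arrays left out the difference stayed between -0.46 and -0.28 for Perp and between -0.39 and -0.22 for Ei24.

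Zmat3, an RNA-binding protein that regulates splicing downstream of p53, read 8.96, 9.08 and 9.23 in Vehicle lines and 8.66, 8.97 and 8.56 in AZD1208 lines. AZD1208 2 and Vehicle 1 were level at 8.97 and 8.96, which is the only overlap, and the difference was -0.36 (SE 0.17). The remaining death genes were mixed in direction. Aen, a nuclease that digests DNA in dying cells, differed by -0.31 (SE 0.23), and Phlda3, an inhibitor of AKT at the membrane, by -0.31 (SE 0.28). Single lines carried much of both values: Aen differed by -0.10 without Vehicle 3 and -0.51 without Vehicle 1, and Phlda3 by -0.085 without Vehicle 1, -0.092 without AZD1208 1 and -0.52 without Vehicle 2. Apaf1, the scaffold of the apoptosome, and the death receptor Tnfrsf10b had differences of 0.10 each, and Triap1, an inhibitor of apoptosis, had -0.03. The sign for Tnfrsf10b rested on Vehicle 1, which read 9.03 against 10.46 and 10.44 in Vehicle 2 and Vehicle 3. Its AZD1208 lines read 9.90, 10.13 and 10.19, all below those other Vehicle lines. Of the 7 death genes tested, 5 had lower and 2 higher means in AZD1208 lines, with a median difference of -0.31 against -0.02 over all genes.

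Dram1 was the one gene that ran the other way without overlap. Its values were 7.49, 7.28 and 7.51 in Vehicle lines and 7.68, 8.74 and 7.60 in AZD1208 lines, against 6.62 in the parental line. AZD1208 2 stood far above the rest, and the other AZD1208 lines lay just above the Vehicle lines. The difference was 0.58 (SE 0.31, unadjusted p = 0.0988, adjusted p = 1, limma), and 0.21 without AZD1208 2.

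**Figure D2:**
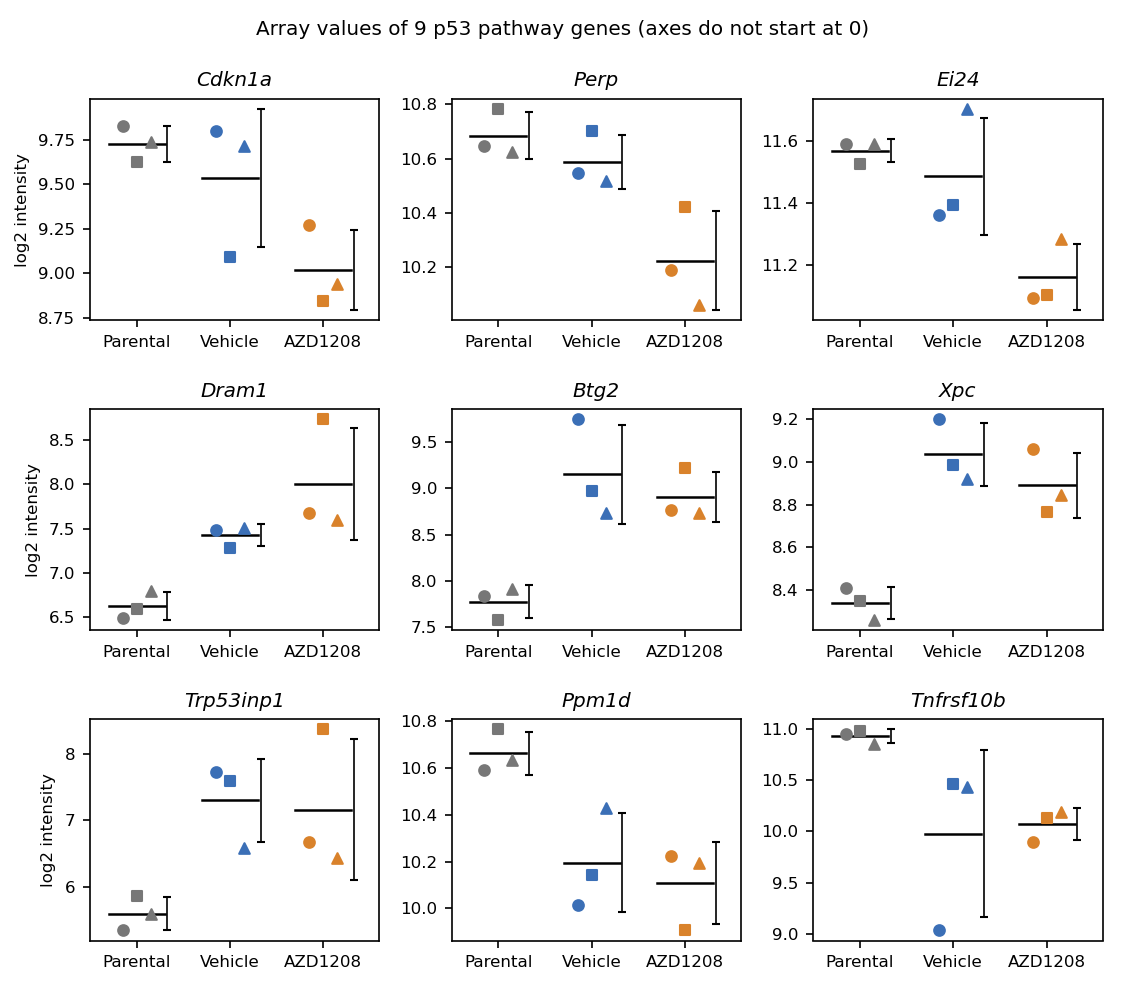
Log2 intensity of 9 p53 pathway genes on each of the 9 arrays; symbols give the replicate number (circle 1, square 2, triangle 3), lines give group means and bars SD (n = 3; for the Parental group the arrays are technical). Perp and Ei24 are lower and Dram1 higher in all 3 AZD1208 lines than in any Vehicle line, and Btg2, Xpc and Trp53inp1 are above all Parental arrays in all 6 recurrent lines.

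Among the core genes, Mdm2 and Mdm4 had differences smaller than their errors. Mdm2, the ligase that degrades p53, read 8.69, 8.79 and 8.55 in Vehicle lines and 8.89, 8.83 and 8.15 in AZD1208 lines, a difference of -0.06 (SE 0.22). Its sign turned without AZD1208 3 (0.18), with array quality weights (0.13) and with quantile normalization (0.0063). Mdm4, which binds p53 and blocks its activity, read 7.79, 8.34 and 7.67 in Vehicle lines and 8.31, 8.45 and 7.13 in AZD1208 lines, a difference of 0.03 (SE 0.37). AZD1208 3 was the lowest of the 6 lines for both genes. The other AZD1208 lines were the highest of the 6 for Mdm2, and for Mdm4 they lay just below and just above the highest Vehicle line. The cyclin Ccng1, a target that recruits a phosphatase to MDM2, differed by -0.24 (SE 0.20), by -0.094 without AZD1208 3 and by -0.11 without Vehicle 1. For Mdm4 the sign also changed when single lines were left out (-0.21 to 0.45).

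Sesn2, a stress sensor that restrains mTORC1, differed by -0.29 (SE 0.25), and Sfn, the 14-3-3 sigma protein of the G2 checkpoint, by 0.21 (SE 0.21). Both had overlapping groups and moved with single lines. Sesn2 differed by -0.54 without AZD1208 3, -0.19 without AZD1208 1, -0.13 without AZD1208 2 and -0.15 without Vehicle 3. Sfn differed by 0.034 without AZD1208 3 and 0.087 without Vehicle 3. The remaining genes tested, Ppm1d, Rchy1, Pml, Trp53inp1, Btg2, Tob1, Plk3, Xpc, Polk, Ercc5, Rrm2b and Sesn1, also overlapped between the groups, with differences from -0.24 (Btg2) to 0.07 (Sesn1).

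Over the 27 genes, 19 had a lower and 8 a higher mean in AZD1208 lines, where 54.8% of all genes were lower and 45.2% higher. The median difference was -0.09, against -0.02 over all genes tested. In all 3 same-numbered pairs of lines, 7 of 27 genes were lower in AZD1208 (Cdkn1a, Zmat3, Perp, Ei24, Aen, Xpc and Sesn2, 25.9%), where 9.65% of all genes were, and Dram1 alone was higher (3.70%), where 7.08% of all genes were. Much of this split went with AZD1208 3. Without it 13 of 27 were lower, where 55.9% of all genes were, and the median was 0.02. With quantile normalization 15 of 27 were lower, where 48.8% of all genes were. A stricter filter on dim genes, at 50% in place of 30%, kept all 27. There 19 were lower, where 63.5% of all genes were, with medians of -0.09 and -0.06. With samples centred on the median 20 of 27 were lower, where 61.4% of all genes were, with medians of -0.11 and -0.05. The share of 54.8%, used here and for the further lists, thus holds for the main setting only. Leaving out AZD1208 3 also added Sesn2 to the lower genes without overlap and Mdm2 and Rchy1 to the higher. That made 6 in place of 3, with 1 line fewer, where 14.3% of all genes had no overlap. Without Vehicle 1 the count was also 6, where 17.6% of all genes had none, with Zmat3, Tnfrsf10b and Aen added to the lower genes.

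AZD1208 3 held the lowest value of the 6 lines for 11 of the 27 genes, or 40.7%, where it was lowest for 24.1% of all genes. These were Mdm2, Mdm4, Rchy1, Ccng1, Trp53inp1, Tob1, Zmat3, Perp, Polk, Ercc5 and Rrm2b. It was the highest line for Sfn and Plk3 only among the 27. Relative to the parental line the median of the 27 genes was -0.23 in AZD1208 3 and between 0.06 and 0.20 in the other 5 lines, while the median of all genes was 0.02 in AZD1208 3. Its narrow range of values moves with this result, and its part in it was not tested. The 27 genes also varied more between lines than genes did in general. Their median SD was 0.36 between AZD1208 lines and 0.23 between Vehicle lines, against 0.25 and 0.19 over all genes tested, and 0.10 against 0.09 between the technical parental arrays.

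**Figure D3:**
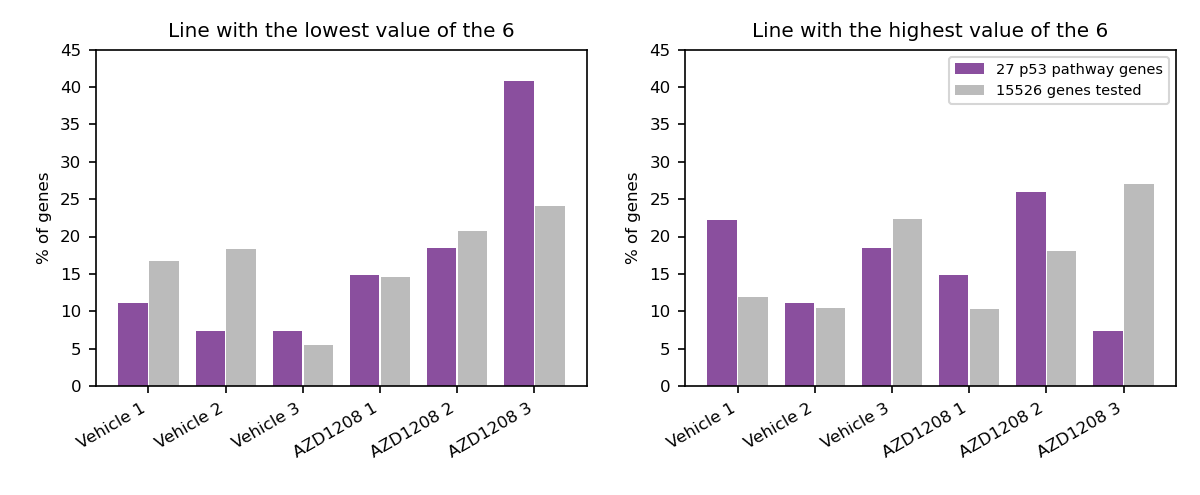
Share of genes for which each recurrent line held the lowest (left) or the highest (right) value of the 6, for 27 p53 pathway genes (purple) and all 15526 genes tested (grey). AZD1208 3 was lowest for 40.7% of the p53 pathway genes and 24.1% of all genes, and highest for 7.41% and 27%.

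All 6 recurrent lines were then set against the parental cells, which were grown with DHT and had not passed through a castrated mouse. Btg2, Tob1, Trp53inp1, Xpc, Sesn1, Sesn2 and Dram1 were above the parental mean in all 6 lines, and Ppm1d and Tnfrsf10b were below it in all 6. That is 7 of 27 above (25.9%, where 11.8% of all genes were) and 2 of 27 below (7.41%, where 10.8% of all genes were). Trp53inp1 passed the filter on dim genes only through its values in recurrent lines. Its place in this and the later counts against the parental line thus rests in part on the filter. No gene of the pathway passed the adjusted threshold (limma, 0 of 27, where 0.0% of all genes passed). Btg2, Xpc and Dram1, 3 of 27, had an unadjusted p under 0.05, where 2.76% of all genes did. With the replicate number as a block the count was 7, where 5.0% of all genes did so, with Trp53inp1, Tnfrsf10b, Sesn1 and Sesn2 added. Some cell type markers also lay on one side of the parental mean in all 6 lines. Of the 8 fibroblast markers the receptor Pdgfra did, at 8.24 to 10.03 against 7.47 (difference 1.68, SE 0.66), and of the 7 leukocyte and macrophage markers Cd68 did, at 7.11 to 8.08 against 7.04. Of the 6 prostate epithelium markers tested, 3 lay below in all 6 lines (50%, where 10.8% of all genes were). The basal keratin Krt14 did so at 6.87 to 7.34 against 7.86 (difference -0.72, SE 0.23). Krt18 read 6.47 to 6.91 against 6.99, and Cdh1 6.45 to 6.96 against 6.995. Of the 4 endothelial markers tested 1 lay below in all 6 lines (25%). The part of these in the values of the pathway genes was not tested.

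Btg2, an antiproliferative protein that recruits the mRNA deadenylase complex, read 9.75, 8.97 and 8.74 in Vehicle lines and 8.77, 9.22 and 8.74 in AZD1208 lines, against 7.78 in the parental line (technical SD 0.18). Every line lay above every parental array, and the difference was 1.25 (SE 0.38, unadjusted p = 0.0118, adjusted p = 1, limma), or 2.39-fold higher. Tob1, of the same protein family, read 10.42, 9.47 and 9.47 in Vehicle lines and 10.01, 10.15 and 9.20 in AZD1208 lines, against 9.05. Its difference was 0.73 (SE 0.45), and AZD1208 3 lay within the range of the parental arrays (8.93 to 9.22).

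Trp53inp1, a nuclear and autophagy protein that promotes p53 phosphorylation, read 7.72, 7.59 and 6.59 in Vehicle lines and 6.67, 8.37 and 6.43 in AZD1208 lines, against 5.59 in the parental line. The fitted difference was 1.63 (SE 0.71). The parental value lies below the filter limit of 5.81, so the gene was tested only because of its values in recurrent lines, and the size of its difference is uncertain. Vehicle 1, Vehicle 2 and AZD1208 2 formed the upper end of a range of 1.94 on the log2 scale.

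Xpc, which recognises damaged DNA in nucleotide excision repair, had the tightest values among the higher genes. It read 9.20, 8.98 and 8.92 in Vehicle lines and 9.06, 8.77 and 8.85 in AZD1208 lines, against 8.34 in the parental line (technical SD 0.08). The difference was 0.62 (SE 0.21, unadjusted p = 0.0195, adjusted p = 1, limma), or 1.54-fold higher, and stayed between 0.58 and 0.66 with single arrays left out. The other repair genes had smaller differences with lines on both sides. Rrm2b, the p53-inducible subunit of ribonucleotide reductase, read 7.20 to 7.94 against 7.43, Polk, a polymerase that copies past damaged bases, 7.30 to 8.22 against 7.63, and Ercc5, the excision repair nuclease XPG, 7.50 to 8.0 against 7.80. AZD1208 3 was the lowest line for each.

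The genes of metabolism and autophagy were all above the parental mean in every line. Sesn1, like Sesn2 a leucine- and stress-responsive inhibitor of mTORC1, read 10.03, 9.11 and 9.49 in Vehicle lines and 10.17, 9.26 and 9.41 in AZD1208 lines, against 8.81, a difference of 0.76 (SE 0.42). Sesn2 read 8.27, 8.30 and 8.68 in Vehicle lines and 7.94, 7.82 and 8.64 in AZD1208 lines, against 7.70, a difference of 0.57 (SE 0.33). AZD1208 2 lay within the range of the parental arrays for Sesn2 (7.61 to 7.85), and the highest lines differed between these genes. Dram1 was 2.14-fold higher (1.10, SE 0.40), and AZD1208 2 again held the highest value.

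The negative regulator Ppm1d, the phosphatase WIP1 that resets p53 after damage, read 10.02, 10.14 and 10.43 in Vehicle lines and 10.23, 9.91 and 10.19 in AZD1208 lines, against 10.66 in the parental line. All 6 lines lay below all 3 parental arrays, and the difference was -0.51 (SE 0.23), or 1.43-fold lower. Tnfrsf10b, the receptor of the death ligand TRAIL, read 9.03, 10.46 and 10.44 in Vehicle lines and 9.90, 10.13 and 10.19 in AZD1208 lines, against 10.93. Vehicle 1 stood well below the rest, and the difference was -0.90 (SE 0.50), or -0.67 without that line. Of the 7 death genes tested, 6 had a mean below the parental value, with a median of -0.28 (54.4% of all genes were lower). The 4 repair genes and the 3 genes of metabolism and autophagy all had a mean above it (45.6% of all genes were higher). Several of these differences were smaller than their SE. These were Rrm2b (0.21, SE 0.29), Polk (0.10, SE 0.35) and Ercc5 (0.02, SE 0.23) above, and Apaf1 (-0.02, SE 0.43) and Phlda3 (-0.33, SE 0.37) below.

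Cdkn1a and the main regulators had lines on both sides of the parental mean. Cdkn1a differed by -0.45 (SE 0.31), with Vehicle 1 above the parental mean and the other 5 lines below it. Mdm2 differed by 0.12 (SE 0.30) and Mdm4 by 0.37 (SE 0.49), and for both only AZD1208 3 lay below the parental mean. Rchy1, a ubiquitin ligase for p53, and Ccng1 also had 5 of 6 lines above it, with AZD1208 3 as the exception. Plk3, a stress-activated polo-like kinase, read 8.42 to 9.37 against 9.34, and Pml, which gives its name to the nuclear bodies that hold p53, 9.22 to 9.59 against 9.52.

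**Figure D4:**
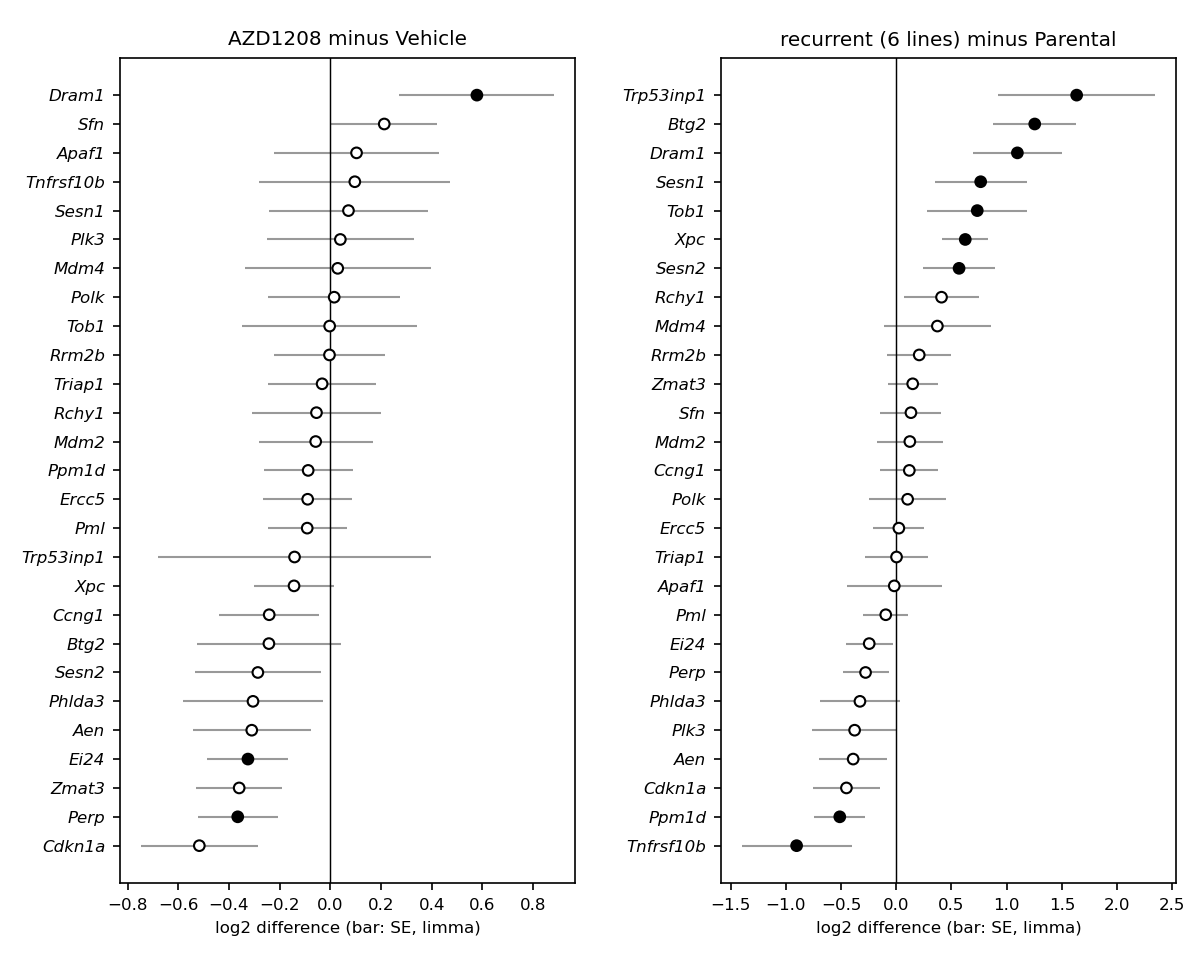
Log2 differences with SE (limma) for 27 p53 pathway genes, AZD1208 minus Vehicle lines on the left and 6 recurrent lines minus Parental on the right, each ordered by size. Filled points are genes whose groups do not overlap (left; 3 genes) or whose 6 lines all lie on one side of the Parental mean (right; 9 genes).

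Over the 27 genes 17 had a higher and 10 a lower mean than the parental line, where 45.6% of all genes were higher and 54.4% lower, and the median difference was 0.12 against -0.02 over all genes. With quantile normalization 14 of 27 were higher, where 40.3% of all genes were, and the median was 0.04. With the stricter filter on dim genes 17 of 27 were higher, where 50.6% of all genes were, and the median over all genes was 0.0041. All lines lay outside the range of the 3 parental arrays for 7 of the 27 genes (25.9%), which are the 9 above without Tob1 and Sesn2. This was so for 12.0% of all genes. Trp53inp1 is among the 7, though it was tested only because of its values in recurrent lines. Without AZD1208 3, 13 genes were above and 3 below the parental mean in all 5 remaining lines, where 19.5% and 22.1% of all genes were. The genes added above were Mdm2, Mdm4, Rchy1, Ccng1, Ercc5 and Rrm2b, and Plk3 was added below. With the replicate number as a block 2 of all genes passed, neither of them in the pathway. When each of the 3 technical parental arrays was taken as a sample of its own, so that technical spread entered as if biological, Btg2 (adjusted p = 0.0362) and Xpc (adjusted p = 0.0377) passed in limma, and over all alternatives their adjusted p ran up to 1.

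Set apart, Vehicle lines had a median of 0.10 over the 27 genes relative to the parental line, with 17 higher and 10 lower (46.4% and 53.6% of all genes). AZD1208 lines had a median of 0.03, with 14 higher and 13 lower (46.6% and 53.4% of all genes). In each of these comparisons 0 of 27 genes passed (limma, where 0.0% of all genes did). The unadjusted p was under 0.05 for 2 of 27 in Vehicle lines, where 2.30% of all genes did so, and for 3 of 27 in AZD1208 lines, where 2.63% did. Both comparisons share the parental sample.

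Fas, the death receptor for Fas ligand, was left out by the filter because it was dim in most samples. It read 5.29, 5.81 and 5.09 in Vehicle lines, 5.28, 8.15 and 5.41 in AZD1208 lines, and 5.12 in the parental line. Only AZD1208 2 was high, 3.03 above the parental mean on the log2 scale. The ectodysplasin receptor Eda2r (5.16 to 5.95, against 5.01 in the parental line) and the polo-like kinase Plk2 (5.29 to 6.05, against 5.58) were left out as well. Their highest values were in AZD1208 2 and AZD1208 3 in that order. AZD1208 2 was also the highest line for 7 of the 27 genes tested (25.9%, where it was highest for 18.0% of all genes), Trp53inp1, Dram1, Mdm4, Apaf1, Polk, Ercc5 and Rrm2b. It was the lowest line for 5 (18.5%, where it was lowest for 20.8% of all genes). Among 8 fibroblast markers it was the highest line for 2, Pdgfrb (9.78, against at most 7.22 in the other lines) and Dcn (6.68). Pdgfra read 9.84 there, second to Vehicle 1 (10.03). AZD1208 3 was the highest line for 4 of the 8 markers. In that line 7 lay above the parental line, with a median of 0.12, against 3 and -0.06 in AZD1208 2. The mean level of those markers was 7.31 in AZD1208 2, 6.71 and 6.81 in the other AZD1208 lines, 6.57 to 6.88 in Vehicle lines and 6.61 in the parental line, while the collagen genes Col1a1 and Col3a1 were not raised there (7.33 and 6.61, against 7.34 and 6.77 in the parental line). For 7 leukocyte and macrophage markers the mean was 6.56 in AZD1208 2, 6.07 to 6.26 in the other AZD1208 lines and 6.13 to 6.67 in Vehicle lines. The part of other cell types in the values of AZD1208 2 was not tested.

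Other genes of the pathway, from lists of activators, further targets and cell cycle genes, gave the setting for these values. Among 18 activators and regulators tested, 14 had a lower mean in AZD1208 than in Vehicle lines (54.8% of all genes), and 10 had a higher mean in recurrent lines than in the parental line (45.6% of all genes). None passed in either comparison (limma). An unadjusted p under 0.05 was found for 0 of 18 in the first (0.522% of all genes) and 1 of 18 in the second (2.76% of all genes). Cdkn2a, which encodes the p53 activator ARF and the CDK inhibitor p16, read 10.49 to 11.24 in recurrent lines against 9.99, a difference of 0.76 (SE 0.31). Its probe set does not separate the 2 products here. The acetyltransferase Ep300 was above the parental value (difference 0.43, SE 0.24) and the checkpoint kinase Chek2 below it (-0.39, SE 0.27) in all 6 lines. Between AZD1208 and Vehicle lines the smallest p were those of the ribosomal protein Rpl5 (-0.24), the deacetylase Sirt1 (0.24) and the DNA repair kinase Prkdc (-0.39), with AZD1208 3 the lowest line for Rpl5 and Prkdc. Rpl5 differed by -0.12 without AZD1208 3 and -0.41 without AZD1208 1, and Sirt1 by 0.12 without Vehicle 1, 0.15 without AZD1208 2 and 0.40 without AZD1208 3. Prkdc differed by -0.07 without AZD1208 3, -0.17 without Vehicle 1 and -0.13 with array quality weights.

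Among 19 further targets tested, 8 had a higher and 11 a lower mean in recurrent lines than in the parental line, with a median of -0.04 (45.6% and 54.4% of all genes were higher and lower). None passed (limma), and for 3 the unadjusted p lay under 0.05 (2.76% of all genes). Ddit4, another inhibitor of mTORC1, differed by 1.13 (SE 0.33), the unconventional cyclin Ccng2 by 1.0 (SE 0.33) and the extracellular sulfatase Sulf2 by 1.92 (SE 0.76), each above the parental value in all 6 lines. Between AZD1208 and Vehicle lines, 12 of 19 had a lower mean (54.8% of all genes), none passed and 0 had an unadjusted p under 0.05 (0.522% of all genes). The smallest p belonged to Rps27l (-0.26), the death domain protein Pidd1 (-0.29) and Ckap2 (-0.21). Without AZD1208 2 the difference was -0.15 for Rps27l and -0.19 for Pidd1, and without Vehicle 3 it was -0.17 for Pidd1 and -0.12 for Ckap2.

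The last list holds cell cycle genes that p53 can repress through p21 and the DREAM complex. Of its 17 genes tested, 16 had lower means in recurrent lines (54.4% of all genes), with a median of -0.44. In all 6 lines 11 lay below the parental value (64.7%, where 10.8% of all genes were). Cdkn1a, which encodes p21, also had a lower mean in recurrent lines (-0.45, SE 0.31), and only the parental cells were grown with DHT. The part of p53 or of DHT in the values of this list was not tested. None passed (limma), and for 1 of 17 the unadjusted p lay under 0.05 (2.76% of all genes). The mitotic kinases Aurka (-0.73, SE 0.30) and Plk1 (-0.67, SE 0.35) and the APC activator Cdc20 (-0.57, SE 0.33) had the smallest p. Relative to the parental line the list had a median of -0.95 in Vehicle 1 and between -0.49 and -0.12 in the other lines. Between AZD1208 and Vehicle lines the median was -0.04, with 13 of 17 lower (54.8% of all genes) and none passing (limma; 0 with an unadjusted p under 0.05, where 0.522% of all genes had one), and Cdc25c (-0.36), Top2a (-0.15) and Mki67 (-0.20) had the smallest p. All 3 rested on single lines: with 1 line left out, Cdc25c ran from -0.75 (without Vehicle 1) to -0.083 (without Vehicle 3), Top2a from -0.30 (without AZD1208 1) to -0.029 (without AZD1208 3) and Mki67 from -0.34 (without Vehicle 3) to 0.035 (without Vehicle 2), with -0.011 without AZD1208 3.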

How the data were processed

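The authors deposited a log2 intensity for each probe set on each array, from 1.94 to 14.4. The submitters' processing notes name oligo. No source used here gives its version, background correction or normalization, and the deposited scale was kept. Among the 41345 probe sets, 1 symbol was listed for 23521, several for 1814 (named for none) and no entry for 16010. Where a gene had several probe sets, that of highest mean stood for it. The 30% of genes with the lowest mean (below 5.81) were left out.

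The 3 parental arrays were averaged, and the 7 samples entered 1 model per gene with a term for group alone (limma 3.58.1, lmFit and eBayes, R 4.3.3). Benjamini-Hochberg adjustment ran over all genes tested, with a threshold of 0.05. The scripts were tested on simulated data. The number of arrays limits the precision.

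The members and the lists were chosen with earlier results of these data known. Always named were Mdm2, Mdm4 and Cdkn1a (with Trp53, not analysed here), then the 10 members of smallest unadjusted p per comparison and up to 3 genes per further list. Any other gene was picked with its values in view. The labels number the lines 1 to 3 in both recurrent groups. Deviations from group means correlated at 0.146, 0.118 and 0.532 for the lines numbered 1, 2 and 3, all above the limit of 0.1 for treating numbers as pairs, although Vehicle 1 and AZD1208 2 correlated at 0.264 and no label states a pairing. The model had no block, and the block was an alternative beside other scalings, filters, probe set rules, array weights and left-out arrays. Differences within same-numbered pairs were counted after the values were seen.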

Additional observations from a re-analysis of the deposited data

Results flagged for a closer look

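Among the 30 genes with a probe set, 2 had a line far from the other recurrent lines, judged by the gap to the nearest line over the range of all 6, a rule that chance alone meets in about 1 of 20 groups and that 9.30% of all genes tested met. Both were highest in AZD1208 2. Fas read 8.15 there and 5.09 to 5.81 in the other 5 lines. Dram1 read 8.74 there and 7.28 to 7.68 in the others.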

How the results depend on the processing

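No member was called in any of the 4 comparisons under any alternative, with the exception of the parental arrays counted as 3 separate samples, where 2 members passed for recurrent lines against the parental line. In that setting 156 of all genes passed for recurrent, 53 for Vehicle and 41 for AZD1208 lines against the parental line, in place of 0. Array quality weights gave 1 gene for recurrent and 2 for AZD1208 lines against the parental line. With the replicate block 2 genes passed in each of these comparisons, no member was called, and no call between AZD1208 and Vehicle lines changed. With single arrays left out, members without overlap numbered 3 to 6, members that lay wholly above or wholly below the parental mean 9 to 16, and genes called for AZD1208 lines against the parental line 0 to 1. The median member difference between AZD1208 and Vehicle lines ran from -0.17 to 0.02 (positive only without AZD1208 3), and that between recurrent lines and the parental line from 0.07 to 0.19. Signs between AZD1208 and Vehicle lines turned for Mdm2 with array quality weights (0.13), with quantile normalization (0.0063) and when arrays were left out (-0.19 to 0.18), and with arrays left out for Mdm4 (-0.21 to 0.45) and Mki67 (-0.34 to 0.035). The cause was not tested. The median member difference from the parental line turned for Vehicle lines with quantile normalization (-0.01) and for AZD1208 lines without AZD1208 2 (-0.05). No other gene followed across the alternatives changed sign. Genes near background, such as Fas, Eda2r and Plk2, have little signal to compare, and the lone parental sample leaves its own spread unmeasured.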
